A study of Cricetulus griseus and Cricetulus griseus
Mus musculus and Mus musculus with 202 samples.

Results

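Whole brain RNA of the mouse was compared with whole brain RNA of the Chinese hamster on 2 of the 202 arrays of a series built around mouse-hamster radiation hybrid cell lines. The arrays were chosen by their labels alone: each holds mouse whole brain RNA in one channel and hamster whole brain RNA in the other. In replicate 1 the hamster RNA carried Cy5 and the mouse RNA Cy3, and in replicate 2 the dyes were exchanged. Both were turned to give mouse over hamster. The labels call them biological replicas and give no strain, age, sex or number of animals for either species. The p-values thus measure only the spread between arrays, those of liver described next included, and this spread may be technical. A further 2 arrays set mouse whole liver against hamster whole liver in the same way and were used to estimate the dye offset of each gene and to ask whether a species ratio differed between the tissues. The other 198 arrays compared 99 hybrid lines, which carry mouse chromosome fragments in hamster cells, with A23, the hamster line they were made from.

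A 2-colour array gives a ratio for each probe and no level. In brain tissue the RNA comes from neurons, which signal through transmitter release, receptors and ion channels, and from glia: astrocytes, which clear transmitters and buffer water and ions, oligodendrocytes, which make myelin, and microglia, the resident immune cells. Vessels, choroid plexus and blood add their own transcripts. The probe table names mouse genes, so a ratio above 1 arises when the gene is more abundant in mouse brain or when the hamster transcript binds the probe less well, and these cannot be told apart here. Nor can fewer cells of a type and less RNA per cell. Since the ratios hold no level, the presence of brain markers in either RNA could not be checked, and the values of markers below are species ratios only.

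Ratios are given as log2 of mouse over hamster. The value of a single array is printed after the gene's dye offset, the mean Cy5 over Cy3 deviation of both liver arrays, was taken off. The offset cancels in the mean of both brain arrays, which is the same with and without it. Each ± is limma's SE of the mean (n = 2 arrays), and a gene was called at an adjusted p under 0.05 by limma with Benjamini-Hochberg adjustment over 16504 genes. Across genes, which are not independent replicates, the brain arrays correlated at r = 0.793 as deposited and at 0.729 with the offset removed, and the median gene differed by 0.51 between them. Deposited values stop at a floor of 100-fold in favour of Cy3. On 195 features in replicate 1 and 20 in replicate 2 the floor was reached, and a mean over such a value is given as "at least" or "at most".

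Mouse brain was higher for more genes than it was lower, and by larger ratios. Of 16504 genes, 3480 (21.1%) were higher and 1736 (10.5%) lower by limma with adjusted p under 0.05. The higher genes had a median ratio of 1.90 and the lower ones of -1.33, with median SEs of 0.24 and 0.22, and no called gene lay closer to 0 than 0.82. A mean above 2 on the log2 scale was reached by 1611 higher genes and a mean above 4 by 364, while 348 lower genes lay below -2 and 44 below -4. All 5216 called genes (31.6%) had the same sign on both arrays, which the test required, and so did 7133 of the 11288 others. The gap between both array values is the fit's only residual, so a gene with opposed signs could not reach a call. As deposited, before the offset was removed, 10161 of the others had the same sign on both arrays. Over all genes 41% lay above 0 on both arrays and 33.8% below, so agreement in sign alone says little about a gene. The calls rest on the dye term: without it, 1659 were higher and 976 lower, of which 1528 and 821 were among those above. Leaving out any 1 array in a fit without the dye term left 0 calls by limma, with 2783 to 3426 genes higher and 2169 to 2912 lower at an unadjusted p under 0.05.

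**Figure D1:**
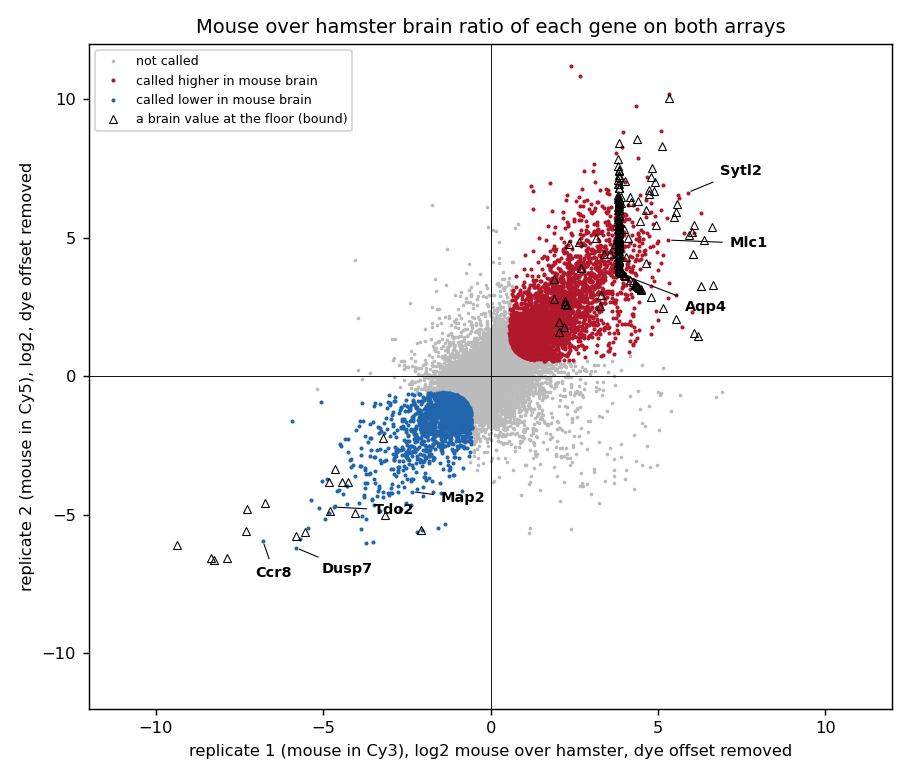
Mouse over hamster ratio (log2) of 16504 genes on brain replicate 1 (x axis) and replicate 2 (y axis), each with the dye offset from the liver arrays removed. Red and blue points are the 3480 and 1736 called genes, grey points were not called, and triangles mark 196 genes with a brain value at the floor. The column of triangles holds genes at the floor on replicate 1 of both tissues. Their position on the x axis is set by that floor and by the centring of features described below.

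The 12 highest named genes were ranked by the smaller of both array values, so that each stood out on either array alone. Sytl2, a synaptotagmin-like protein that tethers secretory vesicles to the membrane, gave 5.88 in replicate 1 and 6.63 in replicate 2, a mean of 6.26 ± 0.25 or 76.5-fold. Septin5, a septin found at nerve terminals, gave 5.62 and 6.44. Reep5, which shapes tubules of the endoplasmic reticulum, gave 5.59 and 6.55. These arrays lay within 1 unit of each other and far from 0. Fam171b gave 5.26 and 5.71, and Mir9-3hg, the host transcript of a miR-9 precursor of neural cells, gave 6.07 and 5.18. Il13ra2, a decoy receptor for interleukin 13, gave 5.07 and 6.01. Mlc1, a membrane protein of astrocyte endfeet, gave 5.30 and 4.92 and averaged 5.11 ± 0.22.

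With the offset removed, the arrays were further apart for 3 of the 12 highest. Phf20, a reader of modified histones, gave 5.33 and 10.2, Pcdhb17, a clustered protocadherin, 5.09 and 8.86, and Fuca2, a fucosidase, 5.15 and 6.91. Rcn2, a calcium-binding protein of the endoplasmic reticulum, averaged 5.48 ± 0.23 and Tnnc1, troponin C of slow and cardiac muscle, 5.36 ± 0.26. In liver, the species ratio of Sytl2 was -0.24, of Septin5 0.15 and of Il13ra2 -0.05, while that of Tnnc1 was 2.56, of Phf20 1.99, of Fuca2 1.95 and of Rcn2 1.61. The difference from liver was called for 11 of the 12, each higher in brain (limma, adjusted p between 0.0163 and 0.0320), and for Phf20 the difference of 5.77 ± 1.22 did not pass (limma, adjusted p = 0.0661). These genes were picked by their brain values, which the difference contains, so its direction was largely set by the choice. Over all genes the difference was called as higher in brain for 4.84% and as lower for 3.97%.

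In the 12 lowest genes the arrays differed by at most 0.88 with the offset removed. As deposited, some lay further apart, such as Capn3 with -2.95 and -5.67. Ccr8, a chemokine receptor of T cells, gave -6.80 in replicate 1 and -5.93 in replicate 2. Dusp7, a phosphatase that acts on ERK kinases, gave -5.81 and -6.19. Insm2, a zinc finger protein, gave -4.83 and -4.94. The rest of this group are best known from other tissues. Adam26a (-5.45 ± 0.21), Adam4 (-4.13 ± 0.22) and Cypt3 (-4.94 ± 0.22) are genes of the testis, Csn3 (-4.92 ± 0.26) encodes a milk casein and Capn3 (-4.31 ± 0.22) a muscle protease. Tdo2, which starts tryptophan breakdown in liver, averaged -4.70 ± 0.21, and Akr1d1, a reductase of bile acid synthesis, -4.67 ± 0.21. Trat1, an adaptor of the T cell receptor, averaged -4.44 ± 0.22 and Triml1 -4.36 ± 0.22. All 24 genes of both groups passed limma with adjusted p between 0.00417 and 0.00771, but Tnnc1 and Capn3 were not called without the dye term. In liver, the ratio of Akr1d1 was 0.99 and that of Capn3 -2.53, and the difference from liver was called for all 12 lowest genes, each lower in brain (limma, adjusted p between 0.0163 and 0.0486). This direction too was largely set by picking the genes on their brain values.

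**Figure D2:**
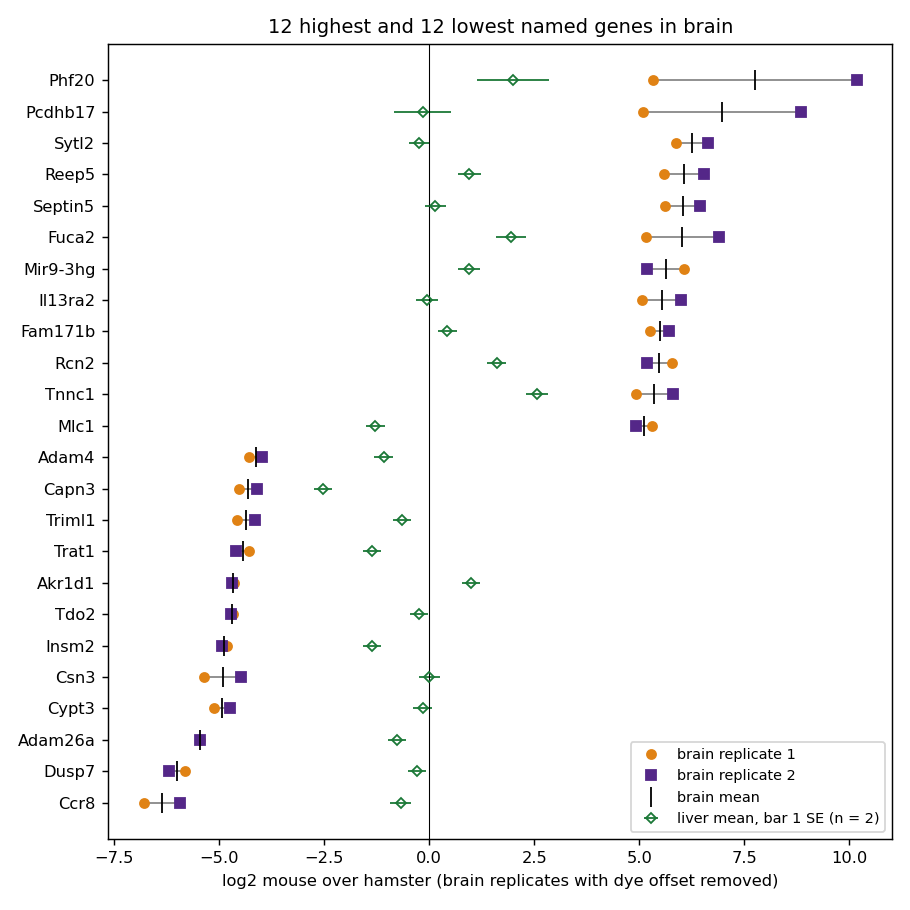
The 12 highest and 12 lowest named genes in brain by log2 mouse over hamster (x axis), with brain replicate 1 (orange circle), brain replicate 2 (purple square), the brain mean (black tick) and the liver mean with 1 SE (green diamond, n = 2 arrays). With the dye offset removed, brain values of the lowest genes end at -3.97 (Adam4, replicate 2) and those of the highest begin at 4.91 (Tnnc1, replicate 1). The liver means lie between -2.53 and 2.56.

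A further 196 genes reached the floor on a brain array, 178 in favour of mouse and 18 in favour of hamster, and all of them were called. For 132 of these, replicate 1 of liver lay at the floor too, so neither tissue's ratio is known beyond a bound. The largest bounds in favour of mouse were those of Miga1, a protein of mitochondrial fusion, at least 7.70, Cav2, a caveolin, at least 6.71, and Brox at least 6.47. Hsbp1, which binds the heat shock factor, followed with at least 6.17, Cdc16, a subunit of the anaphase-promoting complex, with at least 6.12, and Prnp, the prion protein, with at least 6.00. In favour of hamster, Foxa2, a transcription factor of liver and of dopamine neurons, averaged at most -7.73, C1qtnf6 and Ccdc70 at most -7.44, and Krt27, a keratin of hair roots, at most -7.22. Dpt, a matrix protein, averaged at most -6.43 and Adam32 at most -6.02. Brox, Cdc16, Prnp and Adam32 were not called without the dye term.

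Features of the same gene often gave different ratios, which bears on every gene named here. Of 1152 genes with several features, 605 had all features on the same side of 0 and 547 had features on both sides. For the 1037 genes with 2 features, the ratios of both features correlated at r = 0.080 across genes, and over all 1152 the median gap between the highest and lowest feature was 1.04. In 586 genes (50.9%) this gap was over 1. At least 2 features were called in 151 genes, against 19.6% of all features called higher and 10% called lower: 96 of these had them in 1 direction only and 55 had features called in opposite directions. S100b, a calcium-binding protein of astrocytes, was among the 55, with 5.62 ± 0.29 for 1 feature and -1.46 ± 0.23 for the other. Cbx3, a heterochromatin protein, gave 3.35 ± 0.30 and -3.55 ± 0.27, Arf3, a GTPase of the Golgi, 2.45 ± 0.22 and -3.47 ± 0.22, and Pea15a, an astrocyte phosphoprotein, 4.94 ± 0.22 and -1.01 ± 0.25. All 4 were picked after their values were seen. In other genes the features gave the same call: Slit3 gave 2.11 ± 0.25 and 4.04 ± 0.22, and Aldoc 1.97 ± 0.34 and 3.04 ± 0.21. Of the 178 genes named by rule, 172 rest on a single feature, so they have no second reading on these arrays.

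**Figure D3:**
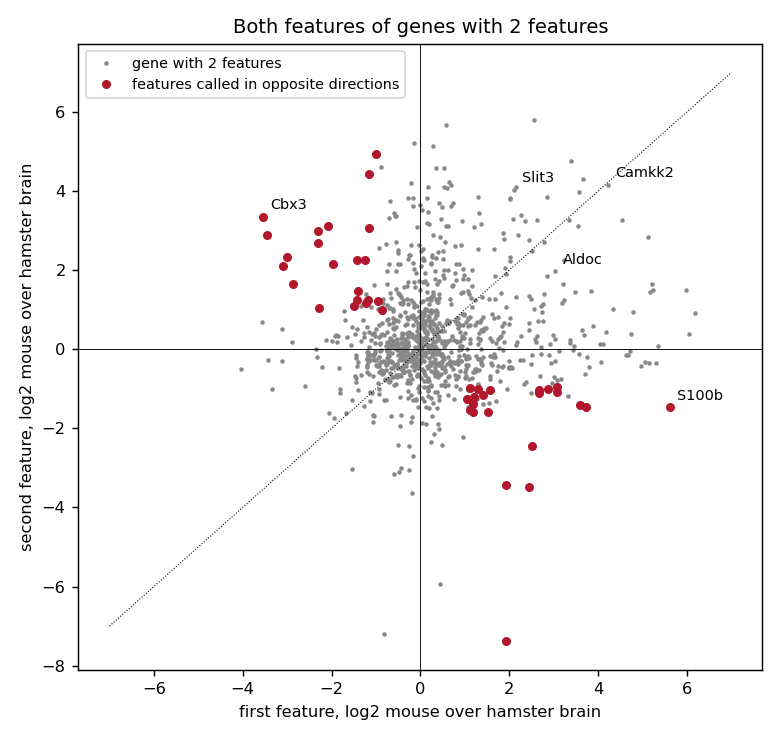
Log2 mouse over hamster brain ratio of the first (x axis) and second (y axis) feature of the 1037 genes with 2 features; each point is 1 gene. Red points are genes whose features were called in opposite directions, such as S100b and Cbx3, and the dotted line marks equal ratios. The points spread along both axes rather than along that line (r = 0.080).

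Of the cell type lists, astrocyte genes had the largest share on the mouse side. Of 24 measured members, 16 (66.7%) were higher and 0 lower by limma, against 21.1% and 10.5% of all genes, and at an unadjusted p under 0.05 the counts were 16 and 1. Their median was 1.58, against 0.06 for all genes. The list was written with earlier results of these data known and is no independent evidence of its direction. Aqp4, the water channel of astrocyte endfeet, gave 3.64 and 3.81 and averaged 3.72 ± 0.21, or 13.2-fold. Sparcl1, a secreted protein that promotes synapses, gave 4.68 and 7.21. Slc1a3, a glutamate transporter, averaged at least 5.24, and Glul, which makes glutamine from glutamate, at least 4.40, where the liver ratio was at the floor as well. Gfap, the intermediate filament of astrocytes, averaged 1.73 ± 0.23 and Aldoc, the brain aldolase, 2.51 ± 0.24. S100b was counted as higher on the mean of its opposed features. The 8 members that were not called included Gja1, a gap junction protein, at -0.25, Mt3, a metallothionein, at -0.30 and Aldh1l1, a folate enzyme used as an astrocyte marker, at -0.33. The difference from liver was called for 9 members, 8 of them higher in brain and 1 lower, against 4.84% and 3.97% of all genes. In the fit without the dye term 10 were higher, and Glul was not called. With the feature nearest 0 taken for genes with several features, 13 were higher and 1 lower. The lists below are to be read beside the same shares of all genes, 21.1% higher and 10.5% lower. Their counts without the dye term stand beside 1659 higher and 976 lower of all 16504 genes.

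Oligodendrocyte and myelin genes were higher in part. Of 29 members, 8 (27.6%) were higher and 1 (3.45%) lower, and the median was 0.17. Car2, a carbonic anhydrase of oligodendrocytes, gave 4.79 and 5.94 and averaged 5.37 ± 0.29. Tspan2, a tetraspanin of myelin, averaged 3.79 ± 0.24, Mal, a proteolipid of compact myelin, 2.82 ± 0.26, and Plekhb1 2.18 ± 0.25. The major myelin proteins gave smaller ratios: Mbp gave 0.16 and -1.39, Mog 0.04 and -0.56, and Mag 0.42 and -0.09, each with arrays on both sides of 0 and no call (limma, adjusted p = 0.229, 0.426 and 0.597). Mobp, a protein of the compact myelin of the central nervous system, was lower at -1.50 ± 0.24. Plekhb1 had a liver ratio of 2.18 as well and was not called without the dye term. The difference from liver was called for 6 members of the list, each higher in brain.

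Microglia and macrophage genes split. Of 23 members, 9 (39.1%) were higher and 3 (13.0%) lower, with a median of 0.28. P2ry12, the purine receptor of resting microglia, gave 4.85 and 4.72 and averaged 4.79 ± 0.21, or 27.6-fold. Ctss, a lysosomal protease, gave 3.03 and 3.05. Ptprc, the leukocyte phosphatase CD45, gave 3.05 and 5.16, and Fcrls, a receptor typical of microglia, 3.15 and 0.87. The lower members are microglial genes as well: Cx3cr1, the fractalkine receptor, averaged -1.14 ± 0.27, Aif1, which bundles actin in microglia, -1.42 ± 0.23, and Itgam, an integrin, -1.27 ± 0.21. Fcrls, Aif1 and Cx3cr1 were not called without the dye term, where 5 members were higher and 1 lower. Liver ratios were 3.10 for Fcrls, -2.38 for Aif1, 0.09 for Cx3cr1 and -0.65 for Itgam. The difference from liver was called for 5 members, each higher in brain.

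Of the vascular genes, 5 of 24 (20.8%) were higher, near the share of all genes, and 1 was lower. Bsg, a surface glycoprotein of the blood-brain barrier, averaged 4.30 ± 0.27 and Emcn, an endothelial mucin, 3.16 ± 0.23. Abcb1a, the efflux pump of brain endothelium, averaged 2.45 ± 0.24, and Abcc9, a subunit of pericyte potassium channels, 1.39 ± 0.26. Cldn5, the main tight junction protein of brain vessels, gave 0.97 and 0.47 and was not called (limma, adjusted p = 0.0775), and Pecam1, an endothelial adhesion molecule, was lower at -1.45 ± 0.22. Bsg and Emcn, with liver ratios of 3.73 and 1.83, were not called without the dye term, which left 2 higher members. The difference from liver was called for 1 vascular member, Abcb1a, which was higher in brain. Of 18 genes of choroid plexus, ependyma and meninges 4 were higher and 2 lower (1 higher without the dye term). Of these, Ttr, the thyroxine carrier made by choroid plexus and liver, gave -0.08 and 0.69 in brain, against a liver mean of 3.22. Of 8 genes of red cells and platelets 2 were higher and 2 lower (1 higher without the dye term), and the globin Hba-a1 gave 0.20 and 0.70, with no call (limma, adjusted p = 0.194).

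**Figure D4:**
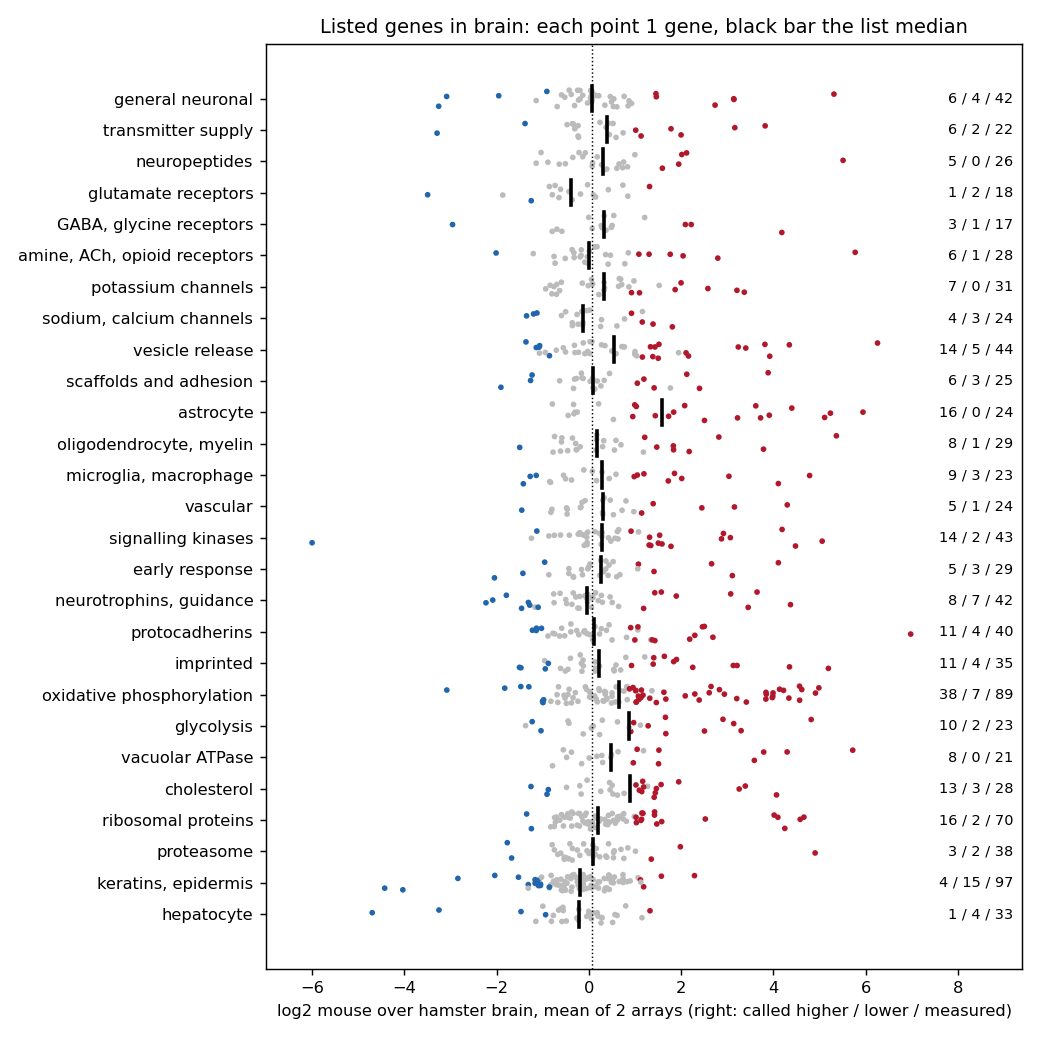
Log2 mouse over hamster ratio in brain (x axis, mean of 2 arrays) for the members of 27 gene lists (y axis); each point is 1 gene, red if called higher, blue if called lower and grey if not called, and genes with a value at the floor are drawn at their bound. Black bars are list medians and the dotted line is the median of all genes, 0.06. The numbers at the right give the members called higher, called lower and measured; the astrocyte median lies at 1.58 and the glutamate receptor median at -0.40.

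Of the general neuronal genes, 6 of 42 (14.3%) were higher and 4 (9.52%) lower, with a median of 0.07, close to the 0.06 of all genes. Individual members had large ratios in both directions. Uchl1, a ubiquitin hydrolase abundant in neurons, gave 3.77 and 2.51, Eno2, the neuronal enolase, 2.38 and 3.90, and Thy1, a surface glycoprotein of projection neurons, 2.99 and 2.48. Camk4, a calcium-dependent kinase of neuronal nuclei, averaged at least 5.31, with liver replicate 1 at the floor as well. On the hamster side, Map2, a microtubule protein of dendrites, gave -2.35 and -4.16 and averaged -3.26 ± 0.37. Nsg1, an endosomal protein of neurons, averaged -3.08 ± 0.32 and Ncdn, neurochondrin, -1.95 ± 0.21. Rbfox3, the nuclear antigen NeuN, averaged -0.91 ± 0.21, and Tubb3, the neuronal tubulin, gave -0.31 on both arrays and was not called. Camk4, Map2 and Rbfox3 were not called without the dye term, where 5 members were higher and 2 lower. The liver ratio of Rbfox3 was -1.12, near that in brain. The difference from liver was called for 4 members as higher in brain and for 2 as lower.

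Transmitter supply genes were higher for 6 of 22 (27.3%) and lower for 2 (9.09%), against 21.1% and 10.5% of all genes. Their median was 0.40. The monoamine oxidases, which break down amine transmitters, were both on the mouse side: Maoa gave 2.22 and 4.11, and Maob averaged at least 3.82, with liver replicate 1 at the floor too. Ddc, which makes dopamine and serotonin from their precursors, averaged 2.00 ± 0.35 and Slc6a3, the dopamine transporter, 1.78 ± 0.32. Dbh, which turns dopamine into noradrenaline, averaged -3.29 ± 0.32, and Slc6a11, a GABA transporter of astrocytes, -1.38 ± 0.21. The fit without the dye term left 2 higher and 1 lower, and Maob, Ddc, Slc6a3 and Dbh lost their call. In liver the ratios were 1.85 for Maoa, 2.07 for Ddc, -0.56 for Slc6a3, -2.45 for Dbh and 0.13 for Slc6a11. The difference between the tissues was called for 1 member of the list.

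Neuropeptide genes were higher for 5 of 26 (19.2%), near the share of all genes, and lower for 0 by limma, with 10 and 4 at an unadjusted p under 0.05. Penk, the precursor of enkephalins, averaged at least 5.51. Npy, neuropeptide Y, gave 1.88 and 2.35 and averaged 2.12 ± 0.22. Pcsk1, a protease that cleaves peptide precursors, gave 2.63 and 1.40 in brain against a liver mean of -4.93. Adcyap1, the peptide PACAP, averaged 1.95 ± 0.36 in brain and 2.17 in liver. Pcsk1 and Adcyap1 were not called without the dye term, which left 3 higher members.

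Glutamate receptor genes had the lowest median of the neuronal lists, -0.40, although few passed: 1 of 18 (5.56%) was higher and 2 (11.1%) lower. In liver their median was lower still, -0.53. The difference between the tissues was called for 1 member as higher in brain and for 0 as lower. Grin2a, a subunit of the NMDA receptor, gave -4.47 and -2.52 and averaged -3.50 ± 0.40. Grm3, a metabotropic receptor of neurons and glia, averaged -1.25 ± 0.22, and Grm7, one of presynaptic terminals, was higher at 1.32 ± 0.25. Of 17 GABA and glycine receptor genes 3 (17.6%) were higher, against 21.1% of all genes, and 1 lower, with a median of 0.33. Gabra4, a subunit of extrasynaptic GABA receptors, gave 3.82 and 4.55, while Gabrb1 gave 3.51 and 0.92, and Gabrg1 2.22 and 1.96. Gabbr1, a subunit of the metabotropic GABA receptor, was lower at -2.96 ± 0.24. Gabrb1 was not called without the dye term or with the arrays scaled.

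Receptors for amines, acetylcholine, peptides, opioids and cannabinoids were higher for 6 of 28 (21.4%), near the share of all genes, and lower for 1. Their median was -0.01. Npy2r, a receptor of neuropeptide Y, averaged at least 5.77. Htr2a, a serotonin receptor of the cortex, gave 2.17 and 3.42, and the ligand-gated serotonin receptor Htr3a 2.66 and 1.42. Chrna3, a nicotinic subunit, averaged 1.76 ± 0.25, and Htr4 was lower at -2.01 ± 0.21. Htr3a and Chrna3 had liver ratios of 1.94 and 1.79, close to those in brain, and lost their call without the dye term. That fit left 2 members of the list higher and 2 lower.

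Potassium channel genes were higher for 7 of 31 (22.6%), near the 21.1% of all genes, and lower for 0 by limma. At an unadjusted p under 0.05 the counts were 13 and 5. The fit without the dye term gave 5 higher and 1 lower. Kcna1, a channel of axons, gave 3.14 and 3.60 and averaged 3.37 ± 0.22. Kcnj6, a channel opened by G proteins, averaged 3.21 ± 0.26, Kcna5 2.58 ± 0.23 and Kcnh1 2.00 ± 0.31. Kcnj6 and Kcnh1 were not called without the dye term. Sodium and calcium channel genes had smaller ratios, none above 1.81 or below -1.35, with 4 of 24 higher and 3 lower. Cacna2d1, the subunit that binds gabapentin, averaged 1.81 ± 0.21, and the sodium channel genes Scn3a, Scn2b and Scn3b 1.39 ± 0.34, 1.16 ± 0.26 and 0.92 ± 0.22. Cacna1a, the pore of P/Q-type channels, averaged -1.35 ± 0.22, and the accessory subunits Cacnb1 and Cacnb2 -1.20 ± 0.26 and -1.13 ± 0.25. The fit without the dye term left 1 higher and 1 lower, with Cacna2d1, Scn3a, Scn2b, Cacnb1 and Cacnb2 no longer called, and with the arrays scaled 1 was higher, since Scn3a, Scn2b and Scn3b were no longer called.

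Vesicle release genes were higher for 14 of 44 (31.8%) and lower for 5 (11.4%), with a median of 0.54. Besides Sytl2, Sv2b, a glycoprotein of synaptic vesicles, gave 5.33 and 3.37 and averaged 4.35 ± 0.40. Snap25, the SNARE of synaptic membranes, gave 1.87 and 4.61 and averaged 3.24 ± 0.52. Vamp7, a SNARE of lysosome-related vesicles, averaged 3.92 ± 0.32 and Napa, which helps to take SNAREs apart, at least 3.82, with liver ratios of 2.96 and 4.23. The calcium sensor of fast release, Syt1, gave 0.30 and 0.69 and was not called (limma, adjusted p = 0.155). Lower members were Stx4a at -1.36 ± 0.26 and Snap23 at -1.08 ± 0.22, SNAREs that are not confined to neurons, and Syt17 at -1.14 ± 0.26. Without the dye term 8 were higher and 2 lower, and Snap25, Vamp7, Napa, Stx4a and Syt17 lost their call.

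Among scaffolds and adhesion molecules of synapses and axons 6 of 25 (24%) were higher and 3 (12%) lower, near the shares of all genes. Their median was 0.09. Dlgap1, a scaffold of the postsynaptic density, gave 4.30 and 3.48. The cell adhesion molecules Nrcam and Cntn1, with 2 features each, averaged 2.40 ± 0.32 and 2.12 ± 0.22, but 1 feature of Cntn1 gave 0.13 ± 0.22 and the other 4.11 ± 0.30. The neuroligins, which span the synaptic cleft, went both ways: Nlgn1 averaged 1.41 ± 0.24 and Nlgn3 -1.91 ± 0.26. Shank3 and Dlg2, scaffolds of excitatory synapses, averaged -1.26 ± 0.21 and -1.23 ± 0.22. When the dye term was left out 3 were higher and 3 lower, and Nrcam and Nlgn1 were not called.

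Kinases, phosphatases and G proteins of neuronal signalling were higher for 14 of 43 (32.6%) and lower for 2 (4.65%), with a median of 0.29. Prkca, a protein kinase C, gave 3.63 and 5.33, and Prkar1a, a regulatory subunit of protein kinase A, 3.11 and 7.00. Camkk2, which activates other calmodulin kinases, averaged at least 4.19. Of its 2 features, 1 lay at the floor and gave at least 4.16, and the other gave 4.21 ± 0.45. Calm3, a calmodulin gene, averaged 3.07 ± 0.22. Beside Dusp7, the lower member was Gng7, a G protein subunit of the striatum, at -1.13 ± 0.21. When the dye term was left out 7 were higher and 2 lower, and Prkar1a and Camkk2 were not called.

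Early response genes, which neurons switch on with activity, were higher for 5 of 29 (17.2%) and lower for 3 (10.3%), near the shares of all genes. Their median was 0.26. Jun gave 3.64 and 4.58, Dusp6, an ERK phosphatase, 2.83 and 3.39, and Arc, which acts at active synapses, 3.30 and 2.02. The nuclear receptor Nr4a1 averaged 1.41 ± 0.21. Per1, a clock gene, gave -1.95 and -2.14, Npas4, a transcription factor induced by calcium, -1.52 and -1.34, and Klf4 -0.82 and -1.10. Klf4 was not called without the dye term. Of 44 transcription factors of brain regions and neuron types, 4 were higher and 4 lower (2 and 1 without the dye term, 2 and 2 with the arrays scaled), with a median of -0.16.

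Neurotrophins, guidance molecules and their receptors had calls in both directions, 8 of 42 (19.0%) higher and 7 (16.7%) lower. Slit2 and Slit3, secreted repellents of axons, averaged 4.37 ± 0.24 and 3.08 ± 0.21. Fgf12, an intracellular factor that binds sodium channels, gave 3.13 and 4.16, and Sema3e, a semaphorin, 3.88 and 3.03. Its relative Sema3a was lower with -1.73 and -2.43, as were the netrin receptors Unc5b at -2.23 ± 0.41 and Dcc at -1.79 ± 0.42. Sema3e, Unc5b and Dcc were not called without the dye term, which left 6 higher and 1 lower member, and Dcc was not called with the arrays scaled, where 6 were higher and 4 lower.

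Clustered protocadherins, which give neurons a surface identity, were higher for 11 of 40 (27.5%) and lower for 4 (10%), against a median of 0.11. After Pcdhb17 came Pcdhga9 with 2.49 and 2.89, Pcdhb21 with 3.05 and 1.96, and Pcdhb7 with 3.07 and 1.86. Pcdhb1, Pcdhb10 and Pcdhga10 were lower, between -1.22 and -1.14. These genes resemble each other in sequence, so a probe may also read a relative, which was not tested. Pcdhb1 was not called without the dye term, where 8 were higher and 3 lower.

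Imprinted genes were higher for 11 of 35 (31.4%) and lower for 4 (11.4%), with a median of 0.23. Impact, a regulator of translation in neurons, gave 3.92 and 4.78, Peg3, a zinc finger protein, 2.60 and 3.83, and Meg3, a long noncoding RNA, 3.21 and 3.05, or 8.76-fold on average. Gatm, which starts creatine synthesis, averaged at least 5.19. On the hamster side, Mest averaged -1.47 ± 0.21, Peg10, a gene derived from a retrotransposon, -1.50 ± 0.33, and Nap1l5 -0.94 ± 0.21. Gatm and Peg10 were not called without the dye term (8 higher and 2 lower), and Nap1l5 was not called with the arrays scaled (10 higher and 2 lower).

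Genes of energy supply had a larger share on the mouse side than all genes. Most calls of oxidative phosphorylation and vacuolar ATPase genes rested on the dye term. Of 89 oxidative phosphorylation genes, 38 (42.7%) were higher and 7 (7.87%) lower with a median of 0.65, and 6 and 2 were called without the dye term. The highest were the complex I subunits Ndufc2, Ndufb3 and Ndufc1, at least 4.99, 4.91 and 4.57, and Sdhaf4, an assembly factor of complex II, at least 4.62. In all 4 of these liver replicate 1 lay at the floor too. Ndufaf1, an assembly factor of complex I, was lower with -3.13 and -3.03, as were Sdhaf3 at -1.82 ± 0.21 and Ndufa4l2, a relative of a respiratory subunit induced by hypoxia, at -1.48 ± 0.32. Of these 7 genes Sdhaf3 kept its call without the dye term. In liver 33 members of this list were higher and 7 lower (16.3% and 9.22% of all genes), and the difference between the tissues was called for 1 member, which was higher in brain. Of 21 vacuolar ATPase genes, which acidify vesicles, 8 (38.1%) were higher and 0 lower by limma (9 and 1 at an unadjusted p under 0.05), and without the dye term 2 were higher and 1 lower. Atp6v1d averaged at least 5.72, Atp6v0d1 gave 3.10 and 5.50, Atp6v0d2 2.21 and 5.37 and Atp6v1f 3.21 and 3.97, none of which was called without that term. Of 23 glycolysis and lactate genes 10 (43.5%) were higher and 2 lower. Without the dye term 6 were higher and 0 lower, against 1659 and 976 of all 16504 genes.

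Cholesterol genes were higher for 13 of 28 (46.4%) and lower for 3, with a median of 0.89. In the fit without the dye term limma called 0 higher and 2 lower, with 12 and 4 at an unadjusted p under 0.05. Insig1, which holds back the sterol response, averaged at least 4.07, with liver replicate 1 at the floor. Msmo1, a sterol oxidase, gave 3.07 and 3.71, Npc2, which moves cholesterol out of lysosomes, 2.29 and 4.23, and Pmvk, an early enzyme of the pathway, 1.94 and 1.95. For Msmo1 liver replicate 1 lay at the floor too, so its dye offset and these array values rest on a bound. Its brain mean of 3.39 does not depend on the offset. Mvk, which acts just before Pmvk, was lower with -1.27 and -1.24, as were the transcription factor Srebf2 at -0.91 ± 0.22 and Sqle, a rate-limiting oxidase, at -0.88 ± 0.21. Neither Srebf2 nor Sqle was called with the arrays scaled, which left 1 lower member, and Mvk and Srebf2 alone of these 7 were called without the dye term. In liver the list's median was 1.38, 15 members were higher and 0 lower by limma (17 and 0 at an unadjusted p under 0.05), and the difference between the tissues was called for 4 members, all lower in brain, Sqle among them.

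Other genes that every cell uses were called as follows. Of 70 ribosomal protein genes 16 (22.9%) were higher, near the share of all genes, and 2 (2.86%) lower (4 and 2 without the dye term). Of 38 proteasome subunits 3 (7.89%) were higher and 2 lower, and of 31 heat shock and chaperone genes 5 and 5. In the fit without the dye term limma called 0 proteasome genes higher and 1 lower (10 and 10 at an unadjusted p under 0.05), and 3 heat shock genes higher and 0 lower (10 and 8). Of 32 MHC and interferon genes 9 were higher and 4 lower, and 3 and 2 without the dye term.

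Lists of genes known mainly from other tissues had medians below 0. Of 842 olfactory and vomeronasal receptor genes 45 (5.34%) were higher and 102 (12.1%) lower, with a median of -0.23. Of 97 keratin and epidermal genes 4 (4.12%) were higher and 15 (15.5%) lower, of 33 genes of germ cells and striated muscle 3 and 5, and of 31 lymphocyte and chemokine genes 3 and 5. Many receptors and keratins are close copies of each other. Of 33 hepatocyte genes 1 (3.03%) was higher, Rbp4, a retinol carrier also made by choroid plexus, with 1.38 and 1.27, and 4 (12.1%) were lower. Beside Tdo2 these included Serpinc1, antithrombin, with -4.25 and -2.25, and Hpx, which binds haem, with -1.37 and -1.58. Alb, serum albumin, gave -0.18 and -0.99 and Apoa1, the main protein of HDL, -1.12 and -0.10, neither of them called (limma, adjusted p = 0.148 and 0.159). In liver 14 of these 33 were higher and 4 lower, and the difference between the tissues was called for 15, with 13 lower and 2 higher in brain. In the fit without the dye term 67 receptor genes were lower and 28 higher in brain, 8 keratin genes were lower and 4 higher, and 2 hepatocyte genes were lower, while Rbp4 and Hpx were not called.

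Brain and liver shared part of their species ratios. Across 16504 genes the ratios of both tissues correlated at r = 0.504 (Spearman's rho 0.492). The points share probes, platform and the estimate of spread. Of the genes higher in mouse brain, 1621 (46.6%) were also higher in mouse liver, which is 60.1% of the liver's higher genes, and 82 were lower there. Of the genes lower in mouse brain, 488 (28.1%) were also lower in liver, or 32.1% of the liver's lower genes, and 83 were higher there. The difference itself passed for 799 genes (4.84%) with a higher ratio in brain and 655 (3.97%) with a lower one. It passed as higher in brain for 633 of the 3480 higher genes, and as lower in brain for 300 of the 1736 lower genes. For 2798 and 1430 of them the difference between tissues was not called, which does not show that the ratios were alike.

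**Figure D5:**
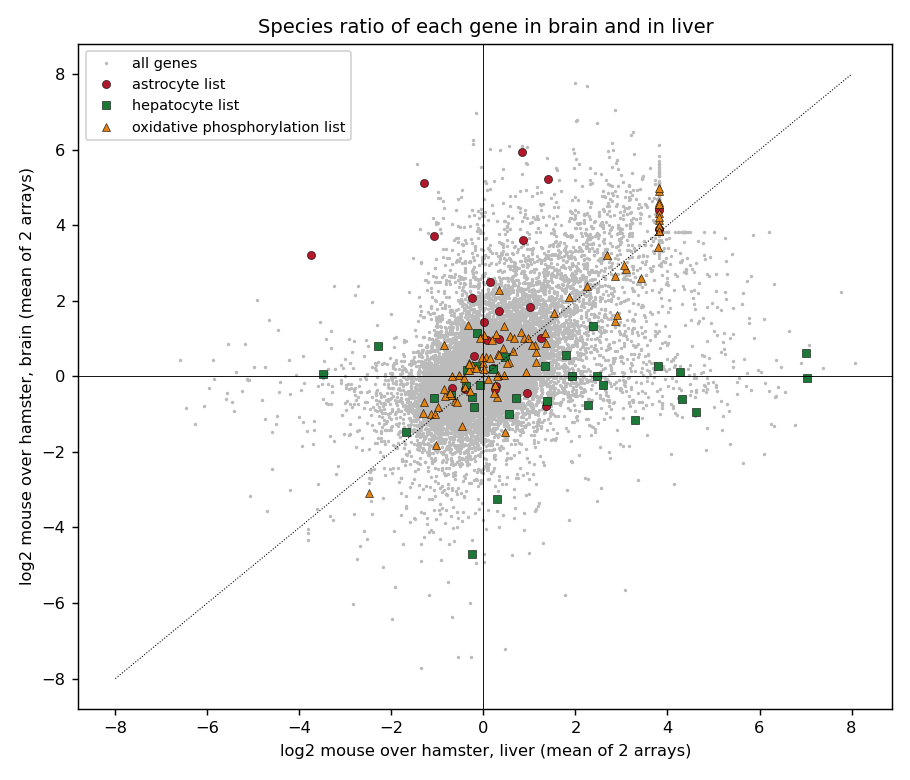
Log2 mouse over hamster ratio in liver (x axis) and in brain (y axis), each the mean of 2 arrays, for 16504 genes (grey) with the astrocyte list in red, the hepatocyte list in green and oxidative phosphorylation in orange; the dotted line marks equal ratios. Astrocyte genes lie mostly above the line (list medians 1.58 in brain and 0.26 in liver) and hepatocyte genes spread to the right of it (-0.22 and 0.55). The short column at the upper right holds genes whose liver ratio is a bound set by the floor and by the centring of features described below.

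The hybrid lines gave a reading of the same features from other RNA. Genes higher in mouse brain had a median ratio of hybrid over A23 of 0.27 in replicate 1 and 0.02 in replicate 2 of the 99 lines, against 0.00 and -0.03 for genes not called in brain and -0.04 and -0.05 for the lower ones. A mean above A23 in both dye orientations was found for 34.9% of the genes higher in brain, 16.3% of those not called and 13.9% of the lower ones. A mean below A23 in both was found for 9.68%, 20.7% and 24.7%. For single genes, the panel mean was 0.19 for Sytl2, 0.59 for Mlc1 and 0.06 for Aqp4, and 0.02 for Ccr8. Replicates 1 and 2 of the lines had opposite signs for Sytl2 (0.74 and -0.36), Aqp4 (0.39 and -0.28) and Ccr8 (0.34 and -0.29). For Mlc1 both were above 0 (0.90 and 0.29). These shares are a description, and no test was made.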

How the data were processed

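Each deposited value is a log10 ratio, Cy5 to Cy3, per the labels. There are 20868 features on 202 arrays, and 0 values were missing. RNA was purified on Qiagen columns and labelled with a direct fluorescent protocol, per the labels' protocols. How the slides were scanned and normalised is not given in the sources. The values showed that each feature had been centred over the 4 tissue arrays: in 99.3% of features the linear ratios had a median of 1 within 1e-06. The offset this leaves is the same on all 4 arrays and is taken up by the dye term, except where a value was cut at the floor. Where replicate 1 of both tissues lay at or near the floor, the centring also fixed the smaller of the replicate 2 values. In brain replicate 2 that value was 1.00 as deposited for Maob and 0.99 for Napa. The bounds of such genes are thus set by the floor and the centring.

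Ratios were turned to mouse over hamster, converted to log2 and averaged over the features of a gene. The probe table supplied for the array gave 1 symbol for 17786 features, or 16504 genes, several for 16 and none for 3066, which were left out. The 4 tissue arrays were fitted with limma 3.58.1 in R 4.3.3, with tissue and dye orientation as terms, which left 1 residual degree of freedom and a prior of 3.20. The dye orientation is the replicate number, per the labels, and the brain and liver arrays of a number deviated together (r = 0.439 across genes). The centring of features over these 4 arrays adds a shared offset, so this value cannot tell an effect of the dye from the centring. Precision is limited by the 2 arrays per tissue, and no intensity was analysed here. No genome build was used.

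Named genes were, by rule, the 12 highest and 12 lowest called genes by the smaller array value, without clone names, floor values or features of mixed sign; up to 4 higher and 3 lower called members of each list; marker genes; and the 6 largest bounds in each direction. Of 35 lists, 12 are given by counts only, where the text adds no member beyond marker genes. The comparison, the lists and the members were chosen with earlier results of these data known. Alternatives left out the dye term, the liver arrays, single arrays or floor values, scaled the arrays, took 1 feature per gene, used robust empirical Bayes or asked for a mean of at least 1.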

Additional observations from a re-analysis of the deposited data

Results flagged for a closer look

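For 81 of the named genes the species ratio differed between brain and liver by limma's contrast of the tissues (adjusted p between 0.0163 and 0.0497), where both tissues were measured and no liver value lay at the floor. The ratio was higher in brain for 55 and lower for 26. Apart from the marker genes, they were picked by brain ratios that the difference contains. These counts and directions were thus largely set by the choice. Over all genes the difference was called as higher in brain for 4.84% and as lower for 3.97%. The values that follow are differences, brain minus liver, of log2 mouse over hamster.

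Among the highest genes they were Sytl2 6.50, Septin5 5.89, Reep5 5.12, Fam171b 5.05, Mir9-3hg 4.68 and Rcn2 3.87. They were also Fuca2 4.08, Pcdhb17 7.13, Il13ra2 5.59 and Tnnc1 2.80. Among glial genes the astrocyte members differed by Mlc1 6.39, Sparcl1 5.10, Aqp4 4.79, Slc1a3 at least 3.84 and Aldoc 2.37, the myelin members by Tspan2 4.71, Car2 4.53 and Mal 3.56, and the microglial members by P2ry12 4.10, Ptprc 3.82 and Ctss 3.34. The efflux pump gene Abcb1a differed by 2.11.

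General neuronal genes differed in both directions, with Eno2 4.67, Thy1 3.94, Uchl1 3.90, Ncdn -2.07 and Nsg1 -2.59. Peptide genes gave Pcsk1 6.95, Penk at least 3.94 and Npy 2.08, and for Pcsk1 most of the difference lay in the liver ratio of -4.93. Receptor genes gave Npy2r at least 4.40, Htr2a 3.05, Gabra4 2.67, Gabrg1 2.06, Grm7 2.06 and Gabbr1 -2.40. Channel genes gave Kcna1 4.26, Kcnh1 3.03, Cacna2d1 2.96 and Kcna5 2.39. Synaptic genes gave Sv2b 4.31, Dlgap1 3.96, Cntn1 2.23, Nlgn1 2.11 and Nlgn3 -2.24.

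Signalling and early response genes gave Jun 3.66, Arc 3.36, Prkca 2.85, Camkk2 at least 2.30 and Calm3 1.75. Guidance genes gave Slit2 4.49, Fgf12 3.62, Slit3 3.27 and Unc5b -4.13, protocadherins Pcdhb21 3.13, Pcdhb7 2.75 and Pcdhga9 2.01, and imprinted genes Meg3 3.93, Impact 3.55 and Peg3 3.35.

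Lower ratios in brain than in liver were found among the lowest genes, with Dusp7 -5.71, Ccr8 -5.69, Akr1d1 -5.66, Csn3 -4.92, Cypt3 -4.78 and Adam26a -4.69. They were also found for Tdo2 -4.46, Triml1 -3.71, Insm2 -3.53, Trat1 -3.08, Adam4 -3.04 and Capn3 -1.78. Genes of liver and lipid supply gave Apoa1 -4.93, Serpinc1 -3.55, Ttr -2.92 and Sqle -2.87, with liver ratios of 4.33, 0.30, 3.22 and 1.99. Genes bounded by the floor in brain gave Krt27 at most -7.68, Ccdc70 at most -7.17, C1qtnf6 at most -6.89, Foxa2 at most -6.38 and Dpt at most -4.44.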

How the results depend on the processing

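The dye term decided most counts. With no replicate block, 1659 genes were higher and 976 lower, 55 genes with features called in opposite directions became 15, and 65 of the 178 named genes lost their call. In that fit the difference from liver was called as lower in brain for 419 genes, while the 583 called as higher were within 1.5 times the main count. With the brain arrays alone 0 genes were higher and 0 lower by limma, with 3426 and 2676 at an unadjusted p under 0.05. Fits without 1 liver array and without the dye term repeat that fit of the brain arrays. Fits without 1 brain array leave 1 array for brain, so their calls are not given. All of these fits have 1 residual degree of freedom and leave the offset in place. Scaling the arrays gave 414 genes whose difference from liver was called as higher in brain and 436 as lower, and took the call from 8 named genes. Leaving out features at the floor (3277 higher, 1744 lower), 1 feature per gene (3227 and 1644), robust empirical Bayes (3445 and 1719) and a mean of at least 1 (3199 and 1396) kept the brain counts within 1.5 times. There were 0 exact zeros on the tissue arrays, so treating them as missing changed nothing. Only 2 arrays and 1 feature for most genes limit the precision, and intensities are unknown.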
